A study of Mus musculus with 2 samples.

Results

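The T cell receptor variable (V) genes were read in single immune cells from the mouse colon during experimental colitis, in which the large bowel is inflamed on purpose. The V genes are the 176 genes of the deposited matrices whose symbols start with Trav, Trbv, Trdv, Trgv or Tcrg-V, out of 32285 genes in all. They comprise 128 Trav, 35 Trbv and 6 Trdv genes, and 7 genes of the gamma locus, grouped here as Trg. Usage was read in T cells, taken as cells with at least 2 UMIs of Cd3d, Cd3e and Cd3g together and 0 UMIs of Cd79a and Ms4a1. A UMI, or unique molecular identifier, counts 1 captured transcript. There were 827 such cells of 10942 retained in the library labelled CKO and 386 of 2924 in the library labelled WT.

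Both libraries came from C57BL/6 mice and were made with the 10x 3′ kit. The series title names loss of RPA1 and T cell necroptosis. The labels give neither the Cre driver nor the deleted exons, and the sources used here do not state the age, the agent that induced colitis or the number of mice per library. Levels below are CPM, the UMIs of a gene scaled to a common total of UMIs in the cells summed. Rpa1, the subunit of replication protein A that the title names, stood at 41.4 CPM (36.2 to 47.1) in T cells of the library labelled CKO and 38.98 CPM (31.4 to 47.9) in those labelled WT. Reads from the transcript's end need not reveal a deletion elsewhere in the gene, so the libraries are known by their labels only, and CKO and WT below mean those labels. Each group is 1 library, so no test was made, and the label cannot be told apart from the mice, their cell preparation or the sequencing library. Intervals are exact or Newcombe 95% intervals that cover counting error only.

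A T cell receptor is a pair of chains, alpha with beta or gamma with delta. Each chain is made from 1 V gene, joined in the thymus to further gene segments, together with a constant region. The V gene of a rearranged transcript that makes protein marks the receptor that the cell carries. A V gene UMI alone does not show such a transcript. Alpha-beta cells with varied V genes make up most circulating T cells, while gamma-delta cells of barrier tissues often use a few V genes with little variation. Trdv4 encodes the chain called Vδ1, which is known in mice for pairing with Vγ6 in interleukin 17-producing cells of barrier tissues. Tcrg-V7 is known for intraepithelial lymphocytes of the gut, and Trgv2 lies beside the constant gene Tcrg-C2.

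The delta V genes that had a UMI in T cells lie on chromosome 14 (GRCm38, GENCODE vM21 annotation). Their last 60 annotated bases are shown because these 4 genes make up every delta call below. The codon of the conserved cysteine that opens the third complementarity-determining region is in capitals.
Trdv4: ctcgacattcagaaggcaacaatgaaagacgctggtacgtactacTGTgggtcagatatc
Trdv1: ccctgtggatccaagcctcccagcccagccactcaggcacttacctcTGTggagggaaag
Trdv2-2: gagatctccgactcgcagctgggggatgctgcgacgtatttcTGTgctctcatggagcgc
Trdv5: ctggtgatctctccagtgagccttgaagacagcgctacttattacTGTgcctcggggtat
Trdv4 is at 54074905 to 54075515 on the plus strand and shared at most 54.0% of its last 250 bases with any other member. Trdv2-2 shared 97.6% with Trdv2-1, which had no UMI in either library. Trdv5 is at 54148662 to 54149294 on the minus strand and overlaps the end of Trdc, which is at 54142851 to 54148868 on the plus strand. The sources used here do not state whether counting used the strand. Whether reads of Trdv5 and Trdc were kept apart where the genes overlap is therefore not known here.

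Among the gamma genes on chromosome 13, 3 are near copies of each other. Their last 120 bases are shown because the most used gamma gene, Trgv2, is told from Tcrg-V1 and Tcrg-V3 by few bases. Capitals mark the bases that differ from Trgv2.
Trgv2: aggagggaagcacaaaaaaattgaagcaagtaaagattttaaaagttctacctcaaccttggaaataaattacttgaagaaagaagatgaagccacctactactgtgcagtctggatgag
Tcrg-V1: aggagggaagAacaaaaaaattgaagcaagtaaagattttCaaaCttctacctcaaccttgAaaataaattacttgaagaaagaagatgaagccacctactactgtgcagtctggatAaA
Tcrg-V3: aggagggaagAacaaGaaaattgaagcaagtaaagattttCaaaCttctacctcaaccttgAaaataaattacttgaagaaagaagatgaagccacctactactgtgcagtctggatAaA
Tcrg-V1 differed from Trgv2 at 6 and Tcrg-V3 at 7 of these 120 bases. Trgv2 is at 19336573 to 19337167 on the minus strand, and Tcrg-C2 at 19304649 to 19307551 on the same strand. Tcrg-V1 is at 19339989 to 19340454 on the plus strand.

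The alpha and beta members shown next are the most used gene of each locus, a near-identical copy of the alpha gene, and a beta gene that was seen in the library labelled WT only. Capitals again mark the cysteine codon.
Trav16: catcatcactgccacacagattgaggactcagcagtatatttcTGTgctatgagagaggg
Trav16n: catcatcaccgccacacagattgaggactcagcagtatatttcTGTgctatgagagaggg
Trbv12-2: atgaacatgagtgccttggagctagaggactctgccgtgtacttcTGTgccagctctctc
Trbv19: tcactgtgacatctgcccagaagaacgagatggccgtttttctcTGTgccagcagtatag
Trav16 (chromosome 14, 53743104 to 53743705) and Trav16n shared 98.8% of their last 250 bases. Trbv12-2 is on chromosome 6 at 41118851 to 41119364 and shared 88.0% with Trbv12-1. Trbv19 is on chromosome 6 at 41178375 to 41179048, and its nearest member, Trbv13-3, shared 63.2%.

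Of the 176 V genes, 82 had a UMI in any retained cell and 76 in T cells. In T cells 53 had a UMI in the library labelled CKO, 54 in that labelled WT and 31 in both. Only 4 of the 176 had at least 20 UMIs over both libraries. The overlap was not compared with that of other genes of like count, so it is not read as a difference in usage. T cells held 544 V gene UMIs of 5505896 UMIs in CKO and 271 of 2334720 in WT. A 3′ kit reads the end of the transcript, far from the V segment, and 34.5% of CKO and 36.8% of WT T cells had any V gene UMI. Median depth was 4738 UMIs per T cell in CKO and 4779.5 in WT. Of 34 members annotated as pseudogenes, 3 had a UMI, 5 UMIs in all.

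Many Trav genes have near-identical copies. The locus holds long duplicated blocks, and 105 of the 128 Trav genes had another member at 95% identity or more. Of these 34 had a UMI, 115 UMIs in all, while 10 of the other 23 had a UMI, 42 in all. There were 38 Trav genes without a stretch of 90 bases of their own, and none of them had a UMI. The 47 Trav genes on the side of the constant region, after the duplicated blocks, held 79 of 89 Trav UMIs in CKO T cells (88.8%) and 54 of 68 in WT T cells (79.4%). A Trav count is therefore reported for the gene named, with its copies uncertain.

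The chain that V genes came from differed between the libraries. Beta V genes were found in fewer T cells labelled CKO and gamma V genes in more. A Trbv UMI was present in 45 of 827 CKO T cells (5.44%, 4.0 to 7.21%) and 53 of 386 WT T cells (13.7%, 10.5 to 17.6%), a difference of -8.29 percentage points (-12.3 to -4.74). A Trg UMI was present in 133 CKO T cells (16.1%, 13.6 to 18.8%) and 39 WT T cells (10.1%, 7.28 to 13.6%), a difference of 5.98 points (1.84 to 9.72). Trav was present in 8.95% of CKO and 11.4% of WT T cells, and Trdv in 10.2% of CKO and 8.03% of WT T cells. The intervals of these last differences included 0 (-6.42 to 1.07 for Trav and -1.54 to 5.35 for Trdv).

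B cells, which should lack T cell receptors, were taken as cells with at least 2 UMIs of Cd79a and Ms4a1 together and no Cd3 UMI. That choice leaves out B cells that hold Cd3 RNA, so their shares may lie below the background in T cells. These B cells had a Trbv UMI in 0.019% of CKO cells and 0% of WT cells. A Trg UMI was present in 0.038% of CKO and 0.133% of WT B cells, at medians of 3203 UMIs per cell in CKO and 4352 in WT. After each T cell was thinned to 1000 UMIs, a Trbv UMI was expected in 1.20% of CKO and 2.57% of WT cells, and a Trg UMI in 3.46% of CKO and 2.07% of WT cells. The thinned shares kept the same order as the unthinned ones for both loci.

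**Figure D1:**
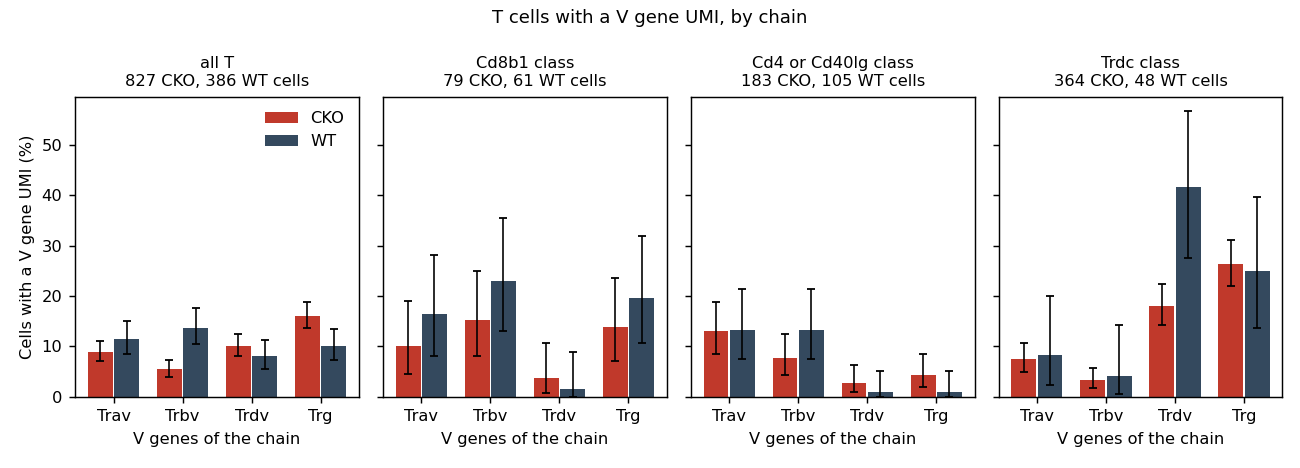
Share of T cells with a V gene UMI (vertical axis, %) for each locus (horizontal axis), in all T cells and in 3 classes, with CKO bars left of WT bars. Lines are exact 95% binomial intervals for 1 library each. In all T cells Trbv stood at 5.44% in CKO and 13.7% in WT, and in the Trdc class Trdv stood at 18.1% in CKO and 41.7% in WT.

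Constant genes and class markers of the T cells differed between the libraries as well. Trdc, the delta constant gene, had a UMI in 364 CKO T cells (44.0%, 40.6 to 47.5%) and 48 WT T cells (12.4%, 9.31 to 16.1%). Cd8b1, a chain of the CD8 co-receptor, had a UMI in 79 CKO (9.55%) and 61 WT T cells (15.8%), and Cd4 or Cd40lg, markers of helper T cells, in 183 CKO (22.1%) and 105 WT T cells (27.2%). These classes overlap in 58 CKO and 9 WT cells. The alpha constant gene Trac was at 147 CPM in CKO and 357 CPM in WT T cells, a log2 ratio of -1.28 (-1.42 to -1.14). The gamma constant genes were higher in CKO, with Tcrg-C1 at 104 CPM in CKO and 40.7 CPM in WT, Tcrg-C4 at 51.4 CPM in CKO and 25.7 CPM in WT, and Tcrg-C2 at 39.8 CPM in CKO and 26.6 CPM in WT.

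Per 1000 UMIs of the constant genes of the same locus, Trbv stood at 8.27 UMIs in CKO and 15.5 in WT T cells. In the Cd8b1 class that value was 17.3 in both libraries, and in the Trdc class it was 3.81 in CKO and 4.99 in WT. Trbc1 and Trbc2, the beta constant genes, together had a UMI in 94.9% of CKO and 93.8% of WT T cells. Trac and Trdc were both present in 118 CKO and 16 WT T cells, so a Trdc UMI alone does not set a cell apart as gamma-delta. The part of cell make-up in the difference of Trbv was not tested.

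Within the classes Trbv was again lower in CKO, with wider intervals. In the Cd8b1 class Trbv was present in 12 of 79 CKO cells (15.2%) and 14 of 61 WT cells (23.0%), and in the Cd4 or Cd40lg class in 14 of 183 CKO cells (7.65%) and 14 of 105 WT cells (13.3%). The intervals of both differences included 0 (-21.3 to 5.17 points in the Cd8b1 class and -14.1 to 1.40 points in the Cd4 or Cd40lg class). In T cells with none of the class genes Trbv was present in 13 of 260 CKO cells (5.0%) and 24 of 181 WT cells (13.3%), a difference of -8.26 points (-14.3 to -2.89). Trg was present in 96 of 364 CKO Trdc cells (26.4%) and 12 of 48 WT Trdc cells (25%), and the interval of that difference included 0 (-13.1 to 12.5 points).

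Cells just inside and outside the limits of the gate differed in step with their Cd3 counts. With a Cd3 sum of 1, outside the gate, 18 of 143 CKO cells (12.6%) and 7 of 49 WT cells (14.3%) had a V gene UMI. With a sum of 2, just inside, it was 19 of 94 CKO cells (20.2%) and 7 of 32 WT cells (21.9%). With 4 or more it was 38.4% of CKO and 38.7% of WT cells. Median depth also differed, at 3674 UMIs in CKO and 1748 in WT for a sum of 1. It was 3400 in CKO and 3519.5 in WT for a sum of 2, and 5183 in CKO and 5061 in WT for 4 or more. The part of depth in these shares was not tested.

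At the level of single genes, 4 of the 176 members had 20 or more UMIs over both libraries, the minimum for reading a ratio, and all 4 intervals included 0. The log2 ratio of CKO over WT was 0.42 for Trgv2 (-0.11 to 0.98), at 22.3 CPM in CKO and 16.7 CPM in WT T cells. It was 0.76 for Tcrg-V1 (-0.47 to 2.20), at 5.09 CPM in CKO and 3.0 CPM in WT. Trdv4 was at 34.0 CPM in CKO and 37.7 CPM in WT, a log2 ratio of -0.15 (-0.52 to 0.23). Trav6-7-dv9 was at 1.82 CPM in CKO and 4.28 CPM in WT, a log2 ratio of -1.24 (-2.66 to 0.18). Thus 1 of the 4 was at least 1.5-fold higher, where 18.2% of all 10217 genes read were, and 1 was at least 1.5-fold lower, where 10.6% of all genes were.

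The delta chain was mostly 1 gene in both libraries. Each cell was called for the V gene with most UMIs of the locus, and Trdv4 took 65 of 82 delta calls in CKO T cells (79.3%, 68.9 to 87.4%) and 27 of 31 in WT T cells (87.1%, 70.2 to 96.4%). Trdv4 had 187 UMIs in CKO T cells, at most 11 in a cell, and 88 in WT T cells, at most 21 in a cell. Trdv1 was called in 5 CKO and 4 WT cells, Trdv2-2 in 8 CKO and 0 WT cells, and Trdv5 in 4 CKO and 0 WT cells. Trdv3 had no UMI in T cells of either library.

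As a share of Trdc cells Trdv4 was lower in CKO, while as a share of all T cells the interval of its difference included 0. A Trdv4 UMI was present in 66 of 827 CKO T cells (7.98%) and 27 of 386 WT T cells (6.99%), a difference of 0.986 points (-2.43 to 3.95). Among Trdc cells it was present in 55 of 364 in CKO (15.1%, 11.6 to 19.2%) and 20 of 48 in WT (41.7%, 27.6 to 56.8%), a difference of -26.6 points (-40.99 to -13.1). Among cells with at least 2 Trdc UMIs it was 51 of 251 in CKO (20.3%) and 17 of 31 in WT (54.8%). After thinning to 1000 UMIs per cell the Trdc shares were 5.95% in CKO and 19.3% in WT.

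Other delta chains were seen in Trdc cells of CKO only at low counts. Trdv genes other than Trdv4 were present in 12 of 364 CKO Trdc cells (3.30%) and 0 of 48 WT Trdc cells. A count of 0 is read here as allowing up to 3 counts, which is 6.25% of these cells. The interval of that difference included 0 (-4.24 to 5.67 points). Several Trav genes carry dv in their names because they can also join delta segments. There are 10 of these among the 128 Trav genes, and 8 had a UMI in T cells.

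The dv genes held most of the Trav cells of the Trdc class. Of Trdc cells with a Trav UMI, 21 of 27 in CKO (77.8%, 57.7 to 91.4%) and 4 of 4 in WT had one of a dv gene. In the Cd4 or Cd40lg class it was 8 of 24 in CKO (33.3%, 15.6 to 55.3%) and 5 of 14 in WT (35.7%, 12.8 to 64.9%), and in the Cd8b1 class 1 of 8 in CKO and 2 of 10 in WT. Trav13-4-dv7 and Trav15-2-dv6-2 led among CKO Trdc cells, with 6 of 26 calls each. Trav15-2-dv6-2 was called in 6 CKO T cells and 0 WT T cells, and the interval of its difference in share of Trav calls included 0 (-1.24 to 16.8 points).

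The gamma chain was also led by 1 gene, Trgv2. It took 82 of 117 gamma calls in CKO T cells (70.1%, 60.9 to 78.2%) and 24 of 36 in WT T cells (66.7%, 49.0 to 81.4%). Tcrg-V1 followed with 16 CKO and 6 WT calls. Tcrg-V7 was called in 6 CKO cells and 1 WT cell, Tcrg-V4 in 5 CKO and 3 WT cells, Tcrg-V6 in 4 CKO cells and 1 WT cell, Tcrg-V5 in 3 CKO and 0 WT cells and Tcrg-V3 in 1 cell of each library. These calls gave an effective number of gamma genes (inverse Simpson concentration, the number of equally used genes that would give the same evenness) of 1.95 in CKO and 2.14 in WT.

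Trgv2 was not confined to Trdc cells. It had a UMI in 94 CKO and 27 WT T cells, of which 65 CKO (69.1%) and 9 WT cells (33.3%) had Trdc, and 39 CKO (41.5%) and 16 WT cells (59.3%) had Trac. In the Cd8b1 class it was present in 11 of 79 CKO cells (13.9%) and 10 of 61 WT cells (16.4%), and it took 10 of 10 gamma calls there in CKO and 10 of 12 in WT. In the Cd4 or Cd40lg class it was present in 6 of 183 CKO cells (3.28%) and 0 of 105 WT cells. Trgv2 cells of the Cd8b1 class had Trac in 9 of 11 in CKO and 8 of 10 in WT, and the granzyme gene Gzma in 10 of 11 in CKO and 7 of 10 in WT. Their median depth was 13405 UMIs in CKO and 5367 in WT. Cd8b1 cells without a Trg UMI had medians of 4997.5 in CKO and 5345 in WT. The part of depth or of doublets in these shares was not tested.

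Most gamma V genes were seen beside more than 1 gamma constant gene. Tcrg-C2 was present in 52 of 94 CKO (55.3%) and 16 of 27 WT Trgv2 cells (59.3%), and Tcrg-C1 in 56 of 94 CKO (59.6%) and 6 of 27 WT Trgv2 cells (22.2%). Tcrg-V4 cells had Tcrg-C2 in 8 of 14 in CKO and 1 of 4 in WT. Among cells with the delta gene Trdv4, Tcrg-C2 was present in 12 of 66 in CKO (18.2%) and 1 of 27 in WT (3.70%). Tcrg-C1 was present in 48 of 66 CKO (72.7%) and 17 of 27 WT Trdv4 cells (63.0%). Tcrg-V6 cells had Tcrg-C1 in 6 of 7 in CKO and 2 of 2 in WT, and Trdv4 in 5 of 7 in CKO and 2 of 2 in WT. Tcrg-V7 cells had Tcrg-C1 in 10 of 11, Tcrg-C2 in 6 of 11 and Trdv4 in 0 of 11 in CKO, with 1 such cell in WT. Cells called for Tcrg-V7 in CKO numbered 6, and all 6 had Cd7 and Ccl5, genes of intraepithelial and cytotoxic lymphocytes.

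A gamma and a delta V gene were both called in 21 CKO and 2 WT T cells. In CKO the pair Trgv2 with Trdv4 was seen in 10 cells, Trgv2 with Trdv2-2 in 5 and Tcrg-V6 with Trdv4 in 3. In WT the pairs were Tcrg-V1 with Trdv4 and Tcrg-V6 with Trdv4, in 1 cell each. More than 1 gamma V gene was present in 22 of 133 CKO cells (16.5%) and 3 of 39 WT cells (7.69%) with a Trg UMI. More than 1 beta gene was present in 1 cell of each library. An unrearranged or non-productive transcript of a V gene cannot be told from a productive one in these counts.

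**Figure D2:**
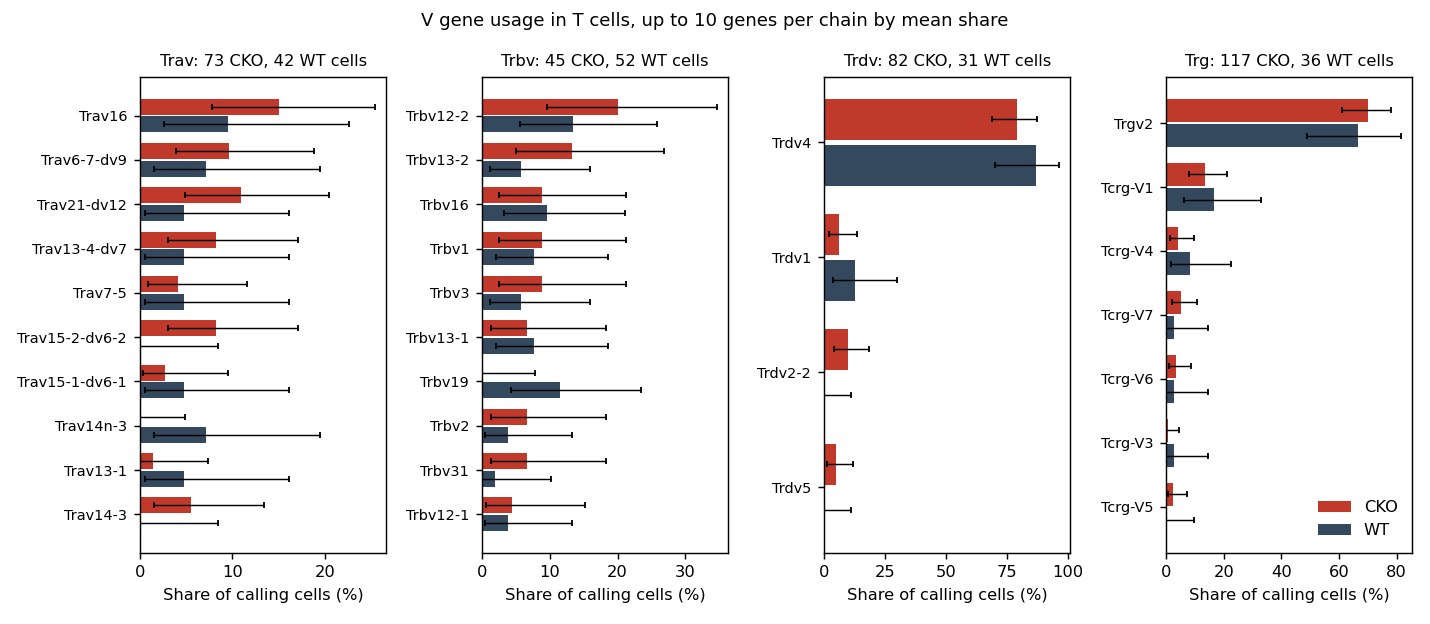
Share of calling T cells (horizontal axis, %) for up to 10 V genes per locus by mean share, with CKO bars above WT bars and exact 95% binomial intervals. Trdv4 took 79.3% of CKO and 87.1% of WT delta calls and Trgv2 70.1% of CKO and 66.7% of WT gamma calls, while no alpha or beta gene passed 20%.

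Alpha and beta usage was spread over many genes. Beta calls covered 15 genes in 45 CKO cells and 19 genes in 52 WT cells, and at 45 cells the expected number was 15 in CKO and 18.2 in WT. The effective number of beta genes was 12.4 in CKO and 18.2 in WT, and with calls at 2 UMIs it was 36 in CKO and could not be computed in WT. Alpha calls covered 27 genes in 73 CKO cells and 25 genes in 42 WT cells, with 19.9 genes in CKO and 25 in WT expected at 42 cells. The effective number of alpha genes was 17.1 in CKO and 39.1 in WT, a value that exceeds the number of genes seen because so few WT cells shared a gene. Counting UMIs in place of cells gave 16.2 in CKO and 21.3 in WT, and calls at 2 UMIs gave 11 in CKO and 14.0 in WT. Pielou evenness, 1 when all genes are used alike, was 0.888 in CKO and 0.969 in WT for alpha and 0.915 in CKO and 0.939 in WT for beta. Within the classes the order varied, on few cells. In the Cd8b1 class the effective number of alpha genes was 28 in CKO (8 cells) and 15 in WT (10 cells). That of beta genes was 22 in CKO (12 cells) and 18.2 in WT (14 cells). In the Cd4 or Cd40lg class the alpha values were 17.25 in CKO and 78 in WT. The beta values there were 22.75 in CKO and 30.3 in WT. Trdc cells gave 26 of 73 CKO and 4 of 42 WT alpha calls.

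The most used beta gene in both libraries was Trbv12-2, with 9 of 45 calls in CKO (20%, 9.58 to 34.6%) and 7 of 52 in WT (13.5%, 5.59 to 25.8%). Trbv13-2 had 6 CKO and 3 WT calls, Trbv16 had 4 CKO and 5 WT calls, and Trbv1 had 4 calls in each library. Trbv3 had 4 CKO and 3 WT calls and Trbv13-1 had 3 CKO and 4 WT calls. The intervals of these 6 differences included 0. Trbv19, chosen after its values were seen, had 0 of 45 calls in CKO and 6 of 52 in WT (11.5%, 4.35 to 23.4%), a difference of -11.5 points (-22.97 to -1.56). Among all retained cells Trbv19 had 0 UMIs in CKO and 7 in WT. It was 1 of 21 beta genes with a UMI in T cells, and its interval is not adjusted for that number.

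Among alpha genes Trav16 led in both libraries, with 11 of 73 calls in CKO (15.1%, 7.77 to 25.4%) and 4 of 42 in WT (9.52%, 2.66 to 22.6%). Trav21-dv12 had 8 CKO and 2 WT calls, Trav6-7-dv9 had 7 CKO and 3 WT calls, Trav13-4-dv7 had 6 CKO and 2 WT calls and Trav7-5 had 3 CKO and 2 WT calls. In the Cd4 or Cd40lg class of CKO Trav16 and Trav6-7-dv9 had 4 of 24 calls each. Both an alpha and a beta gene were called in 2 CKO and 9 WT T cells, and every such pair was seen once. In T cells with none of the class genes Trbv12-2 and Trbv16 led the WT beta calls together with Trbv19, with 3 of 23 calls each.

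Invariant T cells use fixed alpha genes, Trav11 in natural killer T cells and Trav1 in mucosal-associated invariant T cells. Trav11 and Trav11d had no UMI in 827 CKO and 386 WT T cells, and 3 counts, the limit taken for a count of 0, are 0.363% of CKO and 0.777% of WT cells. Only 74 of the 827 CKO and 44 of the 386 WT T cells had any Trav UMI. The limit therefore holds for cells with a detected UMI and does not bound the share of cells that use these genes. Trav11n, a copy of Trav11 and Trav11d named after its value was seen, was called in 0 CKO cells and 1 WT cell. Reads shared by such copies may be dropped in counting, so a count of 0 for a single copy is uncertain. Trav1 was called in 1 CKO cell and 0 WT cells. Among the beta genes these cells often use, Trbv29 was called in 1 CKO and 2 WT cells, and Trbv1 and Trbv13-2 are given above.

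Trdc cells with Trdv4 stood apart from other Trdc cells by type 17 genes in both libraries. There were 55 Trdc cells with Trdv4 and 309 without in CKO, and 20 with and 28 without in WT. Of a list of 14 type 17 genes, those tied to interleukin 17 and its control, 11 had 20 or more UMIs in CKO, of which 9 were at least 1.5-fold higher with Trdv4 and 1 lower, at a median log2 ratio of 1.69. Over all 8002 genes read in CKO 12.3% were higher and 20.8% lower, at a median of -0.06. In WT 9 of 9 genes read were higher, at a median of 2.86, where 19.7% of 2513 genes were higher and 18.3% lower, at a median of 0.00. The minimum was set on UMIs of both sides together, here and in the lists below. A gene low on 1 side could thus be read through the side where it was high. In WT the Trdv4 cells held 48 UMIs of Il17a, 34 of Blk and 26 of Il1r1, enough alone to pass. The 9 of 9 is therefore partly set by the minimum.

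Cd163l1, a scavenger receptor (SCART1) of gamma-delta cells, was at 608 CPM with Trdv4 and 51.2 CPM without in CKO, a log2 ratio of 3.57 (3.25 to 3.90). In WT it was at 646 CPM with Trdv4 and 89.2 CPM without, a log2 ratio of 2.86 (2.11 to 3.67). Rora, a transcription factor of type 17 and innate lymphocytes, was at 1007 CPM with and 311 CPM without Trdv4 in CKO, and 1412 CPM with and 526 CPM without in WT. Both genes were higher with Trdv4 in both libraries. Il7r, the interleukin 7 receptor, had log2 ratios of 0.85 (0.53 to 1.16) in CKO and 1.24 (0.77 to 1.71) in WT.

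The cytokine genes rested on few cells. Il22 was at 868 CPM with and 336 CPM without Trdv4 in CKO, and 560 CPM with and 23.5 CPM without in WT. In WT 63 of 65 Il22 UMIs of Trdv4 cells came from 1 cell. Without the top cell of each side the log2 ratio was 2.28 in CKO and 1.87 in WT, against 1.37 in CKO and 4.58 in WT with it. Il17a, the interleukin 1 receptor gene Il1r1, the interleukin 23 receptor gene Il23r and the kinase gene Blk were chosen after their values were seen. Il17a was at 287 CPM with and 127 CPM without Trdv4 in CKO, a log2 ratio of 1.18 (0.87 to 1.49), and 413 CPM with and 32.9 CPM without in WT, a log2 ratio of 3.65 (2.50 to 5.04). The log2 ratio of Il1r1 was 3.68 in CKO and 3.25 in WT, that of Blk 2.48 in CKO and 3.96 in WT, and that of Il23r 2.86 in CKO and 1.87 in WT.

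Intraepithelial and cytotoxic genes went the other way. Of 13 read in CKO 13 were at least 1.5-fold lower with Trdv4, at a median log2 ratio of -1.51, where 20.8% of all genes read were lower. Of 10 read in WT 8 were lower, at a median of -1.75, where 18.3% of all genes read were lower. Ccl5, a chemokine, was at 787 CPM with and 4362 CPM without Trdv4 in CKO, and 413 CPM with and 3850 CPM without in WT. Fcer1g, an adaptor of activating receptors, was at 682 CPM with and 1050 CPM without in CKO, and 353 CPM with and 629 CPM without in WT. Gzma had a log2 ratio of -0.99 (-1.10 to -0.87) in CKO and -0.36 (-0.63 to -0.10) in WT, and without the top cell of each side the WT value was 1.16. Gzmb, another granzyme, had -0.69 in CKO and -0.67 in WT.

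Of 9 innate-like genes all 9 were read in CKO, with 6 higher and 2 lower with Trdv4, and 8 in WT, with 5 higher and 1 lower. Over all genes read, 12.3% were higher and 20.8% lower in CKO, and 19.7% were higher and 18.3% lower in WT. Cxcr6, a chemokine receptor of tissue lymphocytes, was at 731 CPM with and 184 CPM without in CKO, and 947 CPM with and 155 CPM without in WT. Ikzf2, the gene for the factor Helios, was lower with Trdv4, at 392.5 CPM with and 878 CPM without in CKO and 456 CPM with and 803 CPM without in WT. Ifng, interferon gamma, was at 4667 CPM with and 546 CPM without in CKO, where 1 cell held 1234 of the 2081 UMIs of Trdv4 cells, and at 103 CPM with and 122 CPM without in WT. Genes of naive and recirculating cells were lower in 7 of 8 read in CKO and 2 of 5 in WT. Of 6 genes of regulatory T cells, 2 of 4 read in CKO were higher and 1 lower, and 2 of 3 read in WT were higher and 1 lower.

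Receptor genes differed along the same split. Tcrg-C1 was at 345 CPM with and 163 CPM without Trdv4 in CKO, and 448 CPM with and 84.5 CPM without in WT. Trac was at 11.2 CPM with and 108 CPM without in CKO, and 34.4 CPM with and 164 CPM without in WT. Of the TCR signalling list 1 of 20 read genes was higher and 8 lower with Trdv4 in CKO, where 12.3% of all genes read were higher and 20.8% lower. In WT 4 of 15 were higher and 6 lower, where 19.7% of all genes read were higher and 18.3% lower. No gene of the V(D)J recombination list, Rag1, Rag2, Dntt and Ptcra, reached 20 UMIs.

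**Figure D3:**
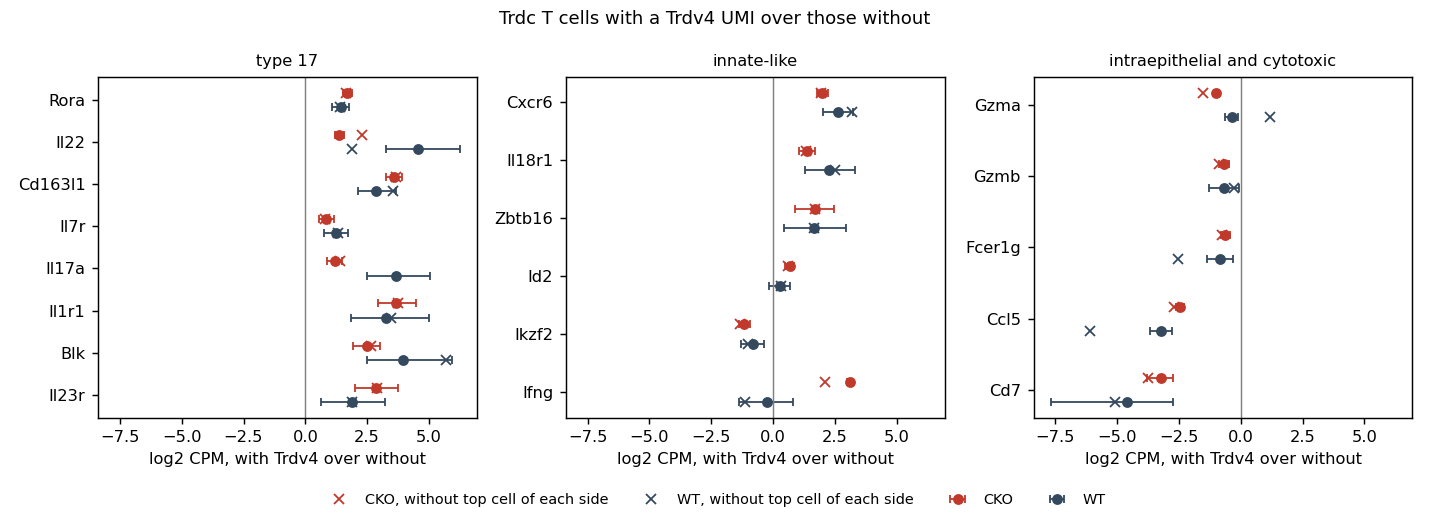
Log2 ratio of CPM in Trdc T cells with a Trdv4 UMI over those without (horizontal axis), for genes of 3 lists, with CKO above WT for each gene. Dots are ratios of UMI sums with conditional exact 95% intervals, and crosses are ratios without the top cell of each side, left out where no UMI remained. Cd163l1 was at 3.57 in CKO and 2.86 in WT, Ccl5 at -2.47 in CKO and -3.22 in WT, and Gzma in WT at -0.36 with and 1.16 without the top cells.

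The Trdv4 cells of the Trdc class were also compared between the libraries, over the same lists. Of 10 type 17 genes read 1 was at least 1.5-fold higher in CKO and 6 lower, at a median log2 ratio of -0.85, where 21.3% of 3716 genes were higher and 19.1% lower. Without the top cell of each gene 2 were higher and 3 lower, so the count of lower genes rested in part on single cells. Il7r was at 267 CPM in CKO and 775 CPM in WT Trdv4 cells, a log2 ratio of -1.54 (-1.95 to -1.13), and Rora at 1007 CPM in CKO and 1412 CPM in WT (-0.49, -0.75 to -0.22). Cd163l1 was at 608 CPM in CKO and 646 CPM in WT, a log2 ratio of -0.09 (-0.46 to 0.30).

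Of 8 intraepithelial and cytotoxic genes read 6 were higher in CKO Trdv4 cells and 0 lower, where 21.3% of all genes read were higher and 19.1% lower. Ccl5 was at 787 CPM in CKO and 413 CPM in WT, where 1 cell held 44 of 48 UMIs. Fcer1g was at 682 CPM in CKO and 353 CPM in WT, where 1 cell held 31 of 41 UMIs. Ifng had a log2 ratio of 5.50 (4.69 to 6.45) and, without the top cell of each library, 5.79, at 1900 CPM in CKO and 34.4 CPM in WT. Over all T cells Ifng had a log2 ratio of 4.15 (3.89 to 4.42). Of the 13 intraepithelial and cytotoxic genes read over all T cells, 6 were also higher in CKO and 0 lower. Over all genes read there, 18.2% were higher and 10.6% lower. The higher level of this list in CKO was thus not particular to Trdv4 cells.

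Trdv4 UMIs were also found in cells without Cd3 UMIs. Of 348 Trdv4 UMIs in retained CKO cells 53.7% were in T cells, and of 178 in WT 49.4%. Among cells with at least 2 of the ILC2 markers Il1rl1, Gata3, Il13 and Klrg1 and no Cd3, Cd79a or Ms4a1 UMI, Trdv4 was present in 34 of 154 in CKO (22.1%, 15.8 to 29.5%) and 17 of 60 in WT (28.3%, 17.4 to 41.4%). ILC2 are innate lymphoid cells, which carry no T cell receptor. This grouping by marker count was chosen after the data were seen.

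Of the 34 CKO cells with Trdv4 0 had Trdc, and of the 17 WT cells 1 had it. Among all 154 CKO and 60 WT cells with ILC2 markers, Trav and Trgv2 had no UMI in either library, and Trbv was present in 0 CKO cells and 1 WT cell. A gamma constant gene was present in 41 of 154 CKO (26.6%) and 28 of 60 WT cells (46.7%). Trbc1 or Trbc2 was present in 120 of 154 CKO (77.9%) and 54 of 60 WT cells (90%), and Trac in 5 CKO and 3 WT cells. Among cells with at least 2 NK markers Trdv4 was present in 18 of 230 in CKO (7.83%) and 3 of 24 in WT (12.5%). It was at 0.114% of CKO and 0.266% of WT B cells and 0.160% of CKO and 0.633% of WT neutrophils, both taken without Cd3 UMIs. The median depth was 3307 UMIs in CKO and 5549.5 in WT ILC2-marker cells.

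In the T cell gate, 11 of 66 Trdv4 cells in CKO and 7 of 27 in WT had no Trdc UMI, and none of them had Cd163l1 or Il17a. The gate held 101 CKO and 39 WT cells with at least 2 ILC2 or NK markers. Without them Trdv4 took 76.5% of CKO and 82.6% of WT delta calls, and Trdv was present in 17.7% of CKO and 42.9% of WT Trdc cells.

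**Figure D4:**
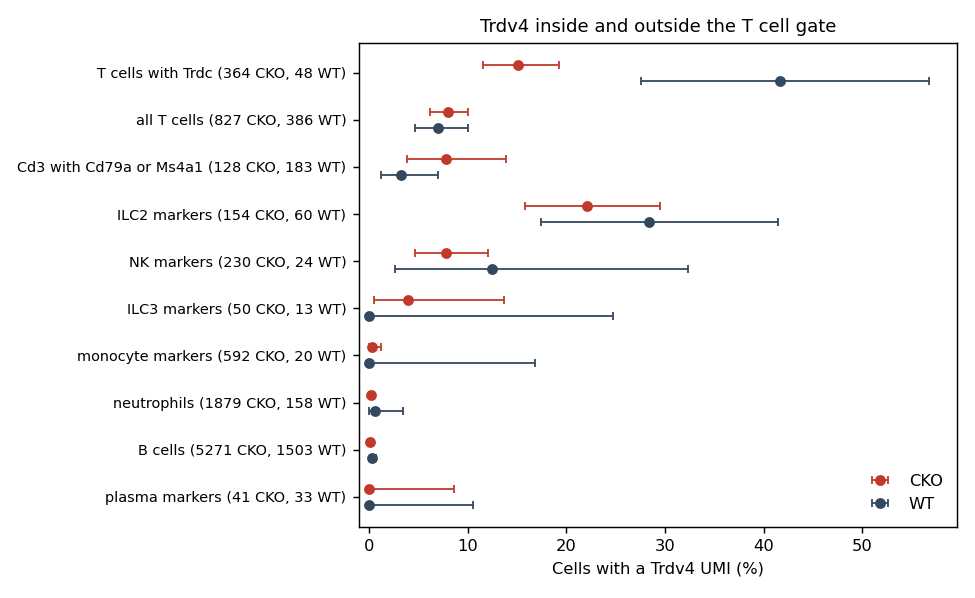
Share of cells with a Trdv4 UMI (horizontal axis, %) in T cells and in populations outside the gate, with CKO above WT and exact 95% binomial intervals. ILC2-marker cells stood at 22.1% in CKO and 28.3% in WT, above all T cells of each library, where Trdc cells stood at 15.1% in CKO and 41.7% in WT, while B cells and neutrophils lay below 1% in both libraries.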

How the data were processed

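Single-cell RNA of colon immune cells was measured in 1 library labelled CKO and 1 labelled WT. The deposited values are UMI counts per gene and barcode, whole numbers without normalization. The matrices were written by Cell Ranger 6.0.1 per the file headers, and the tools listed in the submitters' processing notes are Seurat 3.2.3 and Cell Ranger 5.0.0, with build mm10. Total counts were 57740083 UMIs over 11311 barcodes in CKO and 18627050 over 2972 in WT, and 6 barcodes were shared. The sources used here do not state strand use.

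Barcodes with under 200 genes or over 20% mitochondrial UMIs were left out. Scrublet (scanpy 1.11.5, expected rate of 0.8% per 1000 cells) marked 213 CKO cells (18 in the gate) and 1 WT cell (0 in the gate), below the expected 8.92% in CKO and 2.34% in WT, so doublets may remain. The gate left out 128 CKO and 183 WT cells with Cd3 and B cell UMIs.

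A cell was called for the V gene with most UMIs of its locus, and ties were left out (19 in CKO and 6 in WT). Shares carry Clopper-Pearson intervals, their differences Newcombe intervals and ratios of UMI sums conditional exact intervals (Python 3.11.15, scipy 1.17.1). PCR and cell sampling are not covered. Sums are given as CPM over all UMIs of the cells summed, ratios were read at 20 UMIs and counted at 1.5-fold. All 176 gene IDs matched GENCODE vM21, from which coordinates and sequences were taken. The calculations were tested on simulated data.

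Named V genes were the 6 with the highest mean share per locus, the 2 most used in each class and library with at least 20 calling cells, all gamma and delta genes with a UMI, those of invariant T cells and the commonest pairs. No locus had 50 calling cells in both libraries, so none was named for its difference in share. Other genes were the constant genes and up to 4 per list with most UMIs in the cells described. Exceptions are marked in the text. The members, lists and rules were chosen with earlier results of these data known. The alternatives tried concern doublets, the gate, the call, depth, scaling, the fold and the minimum count.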

Additional observations from a re-analysis of the deposited data

Results flagged for a closer look

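Cells with Cd3 and with Cd79a or Ms4a1 UMIs were left out of the gate, 128 in CKO and 183 in WT, and some of them held V gene UMIs. Trav was present in 8.59% of these cells in CKO and 9.84% in WT, and in 0.0949% of CKO and 0.0665% of WT B cells. The B cells were taken without Cd3 UMIs, so their lower share follows at least in part from that choice. Trbv was present in 7.81% of the cells left out in CKO and 8.20% in WT. Trdv was present in 9.38% in CKO and 3.83% in WT. Trg was present in 14.8% in CKO and 6.56% in WT. Their median depth was 8385.5 UMIs in CKO and 8794 in WT, against 4738 UMIs in CKO and 4779.5 in WT T cells. The cause was not tested.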

How the results depend on the processing

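No paired analysis was possible because each group has 1 library. Of 299 alternative values 240 moved by less than their counting interval or 1.5-fold, 59 moved further and 0 reversed. With a Cd3 sum of at least 4 a Trg UMI was present in 19.1% of CKO T cells. Thinned to 1000 UMIs per cell, a UMI was expected in 2.14% of CKO and 2.46% of WT cells for Trav, 1.20% of CKO and 2.57% of WT cells for Trbv, 3.37% of CKO and 3.25% of WT cells for Trdv and 3.46% of CKO and 2.07% of WT cells for Trg. Counting UMIs in place of cells gave Trdv4 89.9% of CKO delta usage and 21.3 effective alpha genes in WT. Calls at 2 UMIs gave 11 effective alpha genes in CKO and 14.0 in WT, 36 effective beta genes in CKO, Trdv4 97.4% of CKO delta calls and Trgv2 85.7% of CKO and 100% of WT gamma calls. By Trav family there were 10.8 effective alpha families in CKO and 18.7 in WT.

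The V gene at least 1.5-fold higher in CKO became 0 when scaled by constant genes or at a fold of 2, and 2 at a minimum of 10 UMIs. The V gene at least 1.5-fold lower became 0 with a Cd3 sum of at least 4, with the limit on other cell types, without the top cell of each gene, or without cells with ILC2 or NK markers, an alternative chosen after seeing the data. It became 2 when scaled by constant genes and 5 at a minimum of 10 UMIs. Depth limits these values: 4 of 176 genes could be read as ratios, and usage shares over all T cells rest on 31 to 117 calling cells per locus, those within classes on fewer.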
